A study of Rattus norvegicus with 12 samples.

Results

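Doxorubicin acts on topoisomerase II, and the genes described here encode the topoisomerases and the enzymes that free DNA from them. Of 9 genes named by symbol (Top1, Top1mt, Top2a, Top2b, Top3a, Top3b, Tdp1, Tdp2 and Mre11a), 7 matched a probe set among the 14506 genes measured. Mre11a was matched under its current symbol, Mre11, and Top2b and Top3a were not analysed here. Each gene was represented by its brightest probe set.

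The cells were neonatal cardiac myocytes of Sprague Dawley rats in primary culture, at over 90% myocytes per the labels. Bromodeoxyuridine, a thymidine analog that stops dividing fibroblasts, had been in the medium of all cultures early on. All cultures received an siRNA, either a non-silencing one (NS) or one against p300 (p300kd), the lysine acetyltransferase encoded by Ep300, and then spent 48 h without serum. RNA was taken from 3 NS and 3 p300kd cultures at 0 h. A further 3 of each were taken after 8 h with 1 µM doxorubicin (Dox). This gave 4 groups of 3 Affymetrix arrays. The sample titles number the biological replicates of each group 1 to 3. Arrays with the same number are called an experiment here. The sample titles do not state that pairing, which was taken from the correlation of the arrays. Drug and time went together, since no culture was kept for 8 h without the drug.

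Topoisomerases relieve the twisting and tangling of DNA by cutting it and sealing it again. During the cut a tyrosine of the enzyme is bound to the DNA end. Type II enzymes (Top2a, mainly of dividing cells, and Top2b, also of resting cells) cut both strands, and Dox holds them in the cut state, so that the protein stays on the DNA as an adduct. Type IB enzymes (Top1 in the nucleus, Top1mt in mitochondria) and type IA enzymes (Top3a and Top3b) cut a single strand. Tdp1 removes the tyrosine of TOP1 from a 3′ end, Tdp2 removes that of TOP2 from a 5′ end, and the MRE11 nuclease cuts the blocked end away. Heart muscle cells of the adult have largely left the cell cycle, and TOP2B is the form usually discussed for Dox in the heart.

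Across the genes measured, Tdp1 and Top2a fell after 8 h of Dox in both NS and p300kd cells. Top3b fell and Mre11a rose in p300kd cells at the threshold used, an adjusted p under 0.05. In NS cells 2 of the 7 genes passed (28.6%), against 27.5% of all genes, so their share is near that of the whole array; with the experiments blocked 5 of 7 passed, against 43.5% of all genes. In p300kd cells 4 of 7 passed (57.1%), against 31.4% of all genes, and again 4 of 7 with the experiments blocked, against 45.8%. Between p300kd and NS cells 0 of 7 were called at either time. The median change with Dox over the 7 was -0.19 in NS cells and -0.27 in p300kd cells on the log2 scale, against 0.04 for all genes in both.

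Ep300 itself lay between 11.01 and 11.16 log2 intensity in the 3 untreated NS cultures and between 10.02 and 10.41 in the 3 untreated p300kd cultures, and after Dox between 10.72 and 10.86 in NS and 9.64 and 10.10 in p300kd cells. The p300kd level was 51.9% of NS at 0 h (adjusted p = 0.0404, limma) and 52.9% at 8 h (adjusted p = 0.0271) by the same test. Both calls were lost without experiment 2 or 3 and without 9 and 8 of the 12 arrays in turn; averaged over both times the level was 52.4% (adjusted p = 0.00212), a call lost without experiment 2 or 3 and kept when any single array was left out. All 8 markers of cardiac myocytes were measured, with a summed linear intensity of 60066 to 75039 over the 12 arrays, and 0 of 8 passed for Dox in either kind of cell. With the experiments blocked 0 of 8 passed in NS cells and 4 of 8 in p300kd cells. In the latter Tnnt2 (0.12), Tnni3 (0.19) and Mybpc3 (0.20) were higher and Pln (-0.15) lower (adjusted p = 0.00819 to 0.0218). Of all genes 27.5% passed in NS and 31.4% in p300kd cells, and 43.5% and 45.8% with the block. The arrays number 3 per group, which limits the precision.

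Top2a, the type II enzyme of dividing cells, had log2 intensities of 10.61, 10.73 and 10.37 in the untreated NS cultures of experiments 1, 2 and 3, and of 9.89, 10.37 and 9.90 after Dox. The untreated p300kd cultures gave 10.51, 10.71 and 10.66, and the treated ones 9.97, 10.32 and 9.95. Experiment 2 had the highest Top2a in all 4 groups. In NS cells the groups overlapped only in that the treated culture of experiment 2 and the untreated one of experiment 3 both stood at 10.37, while in p300kd cells all treated cultures lay below all untreated ones. Within an experiment Top2a was lower after Dox in 6 of 6 pairs, with differences of -0.353 to -0.716 in NS and -0.3905 to -0.7145 in p300kd cells. The change in NS cells was -0.51 (SE 0.146, 1.43-fold lower, adjusted p = 0.0197) and was larger in size than that of 88.4% of all genes. In p300kd cells it was -0.55 (SE 0.146, 1.46-fold lower, adjusted p = 0.0120). The call in NS cells was lost without experiment 1 (-0.41, adjusted p = 0.128) or 3 (-0.53, adjusted p = 0.0915) and without the untreated NS array of experiment 1 or 2 or the treated one of experiment 1 or 3 (adjusted p = 0.0595 to 0.0804). The call in p300kd cells was lost without experiment 3 (adjusted p = 0.116) or its treated p300kd array alone (adjusted p = 0.0522).

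The 2 genes called in both kinds of cell, Top2a and Tdp1, are shown here by the 250 bases before their RefSeq start on the rat assembly GRCr8. Top2a lies on the minus strand of chromosome 10 with the window chr10:84473094-84473343, and Tdp1 on the plus strand of chromosome 6 with the window chr6:124892571-124892820. Capitals mark the letters CCAAT or ATTGG, the CCAAT box that NF-Y binds, and TTTGAA or TTCAAA, the cell cycle homology region known from genes of late cell cycle phases, each searched on both strands. No letters of one motif fall within a match of the other.
Top2a: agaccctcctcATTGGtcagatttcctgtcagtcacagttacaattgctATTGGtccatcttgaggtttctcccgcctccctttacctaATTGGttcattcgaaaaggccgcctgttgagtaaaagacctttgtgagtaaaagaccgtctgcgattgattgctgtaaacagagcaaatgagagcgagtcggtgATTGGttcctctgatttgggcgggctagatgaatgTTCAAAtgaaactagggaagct
Tdp1: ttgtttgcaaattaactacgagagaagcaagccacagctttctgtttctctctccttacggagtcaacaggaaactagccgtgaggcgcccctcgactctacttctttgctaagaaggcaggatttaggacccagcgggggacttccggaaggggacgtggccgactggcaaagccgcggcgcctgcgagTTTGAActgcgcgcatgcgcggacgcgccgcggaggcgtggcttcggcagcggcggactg

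The Top2a window held 4 CCAAT matches, each read as ATTGG on the printed strand and beginning at positions -239, -201, -161 and -57 from the start. At least 1 such match was present in 34.0% of 33469 rat promoters of the same length, and 4 or more in 0.56%. The other 5 members with an entry (Top1, Top3b, Tdp1, Tdp2 and Mre11a) held 0. TTTGAA was matched once in Top2a and once in Tdp1, beginning at -22 and -60, and 16.2% of all promoters held it. The GC box GGGCGG or CCGCCC was matched 4 times in Top1 (each of the last 3 overlaps its neighbour; 3.67% of promoters held as many), in 1 place each in Top2a and Tdp2 and in 0 places in the others, where 30.5% of all promoters held at least 1. A match of letters is a description and shows no binding.

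**Figure D1:**
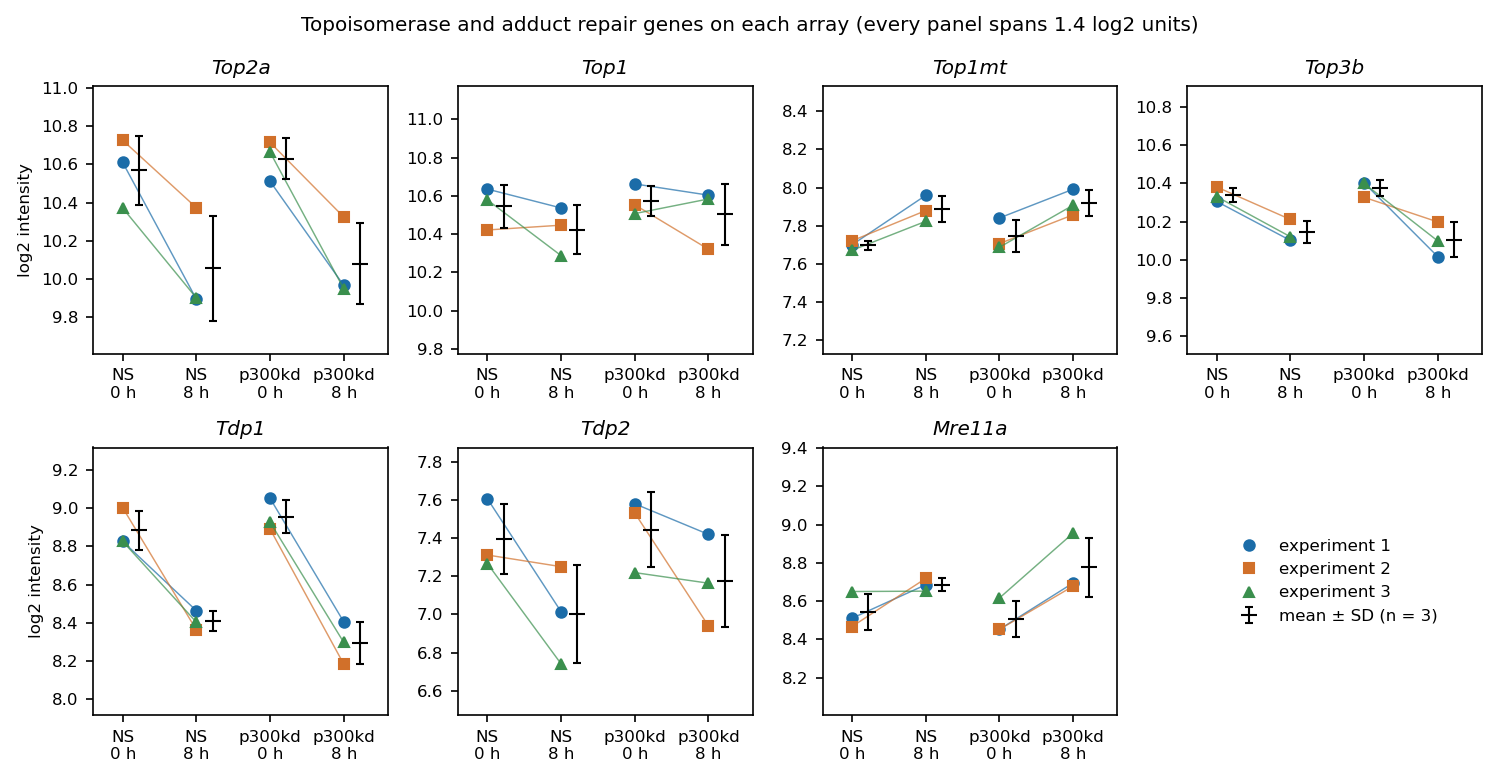
Log2 intensity (y axis) of the 7 genes on each of the 12 arrays, by group (x axis), with 1 symbol per experiment, lines joining the 0 h and 8 h cultures of an experiment, and black bars for the mean ± SD (n = 3). Top2a and Tdp1 are lower at 8 h in every experiment and both kinds of cell, Top1 has no common direction, and experiment 2 is highest for Top2a in all 4 groups.

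The dividing-cell genes are a list of 25, of which 21 were measured; Top2a itself belongs to such genes. After Dox in NS cells 8 fell and 1 rose, with a median of -0.17, and in p300kd cells 8 fell and 2 rose, with a median of -0.29. With the experiments blocked 9 fell and 4 rose in NS cells, where Rrm1 (0.18) and Nusap1 (-0.20) were among those added, and 11 fell and 3 rose in p300kd cells, where Mcm5 (-0.29) and Rrm1 (0.17) were. Of all genes 16.4% fell and 11.1% rose in NS cells and 17.5% fell and 13.9% rose in p300kd cells. With the block 43.5% of all genes passed in NS and 45.8% in p300kd cells. Median centring of the arrays shifted that median of all genes to 0.14 in both kinds of cell, and then 3800 genes rose and 1832 fell in NS cells, in place of 1617 and 2375, and 4344 rose and 1991 fell in p300kd cells, in place of 2017 and 2543. Cdc20, an activator of the anaphase-promoting complex, fell by 1.63 in NS cells and fell by 1.83 in p300kd cells. The mitotic kinase gene Plk1 fell (-1.36 in NS and -1.24 in p300kd cells), as did the cyclin gene Ccnb1 (-1.26 and -1.39), Bub1b of the spindle checkpoint (-1.16 and -1.04) and the replication helicase gene Mcm2 (-0.86 and -1.14). Tyms, of thymidylate synthesis, rose by 0.77 in both. The calls of these 6 genes held under all 22 alternatives. Pcna, the sliding clamp of DNA polymerases, was 0.45 higher in NS cells without passing (adjusted p = 0.161, or 2.11e-05 in the fit that blocks experiments) and rose by 0.75 in p300kd cells (adjusted p = 0.0228, lost without experiment 2 or 3 and without 3 of the 12 arrays in turn: the untreated p300kd array of experiment 1 and the treated ones of experiments 2 and 3). Tk1 (0.20) did not pass in NS cells (adjusted p = 0.190, or 0.0273 with the block), and Aurkb (-0.32) and Mcm6 (-0.30) did not in p300kd cells (adjusted p = 0.0927 and 0.258, or 0.00337 and 0.00200 with the block).

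Over the 12 arrays the genes above the median level with the pattern most like that of Top2a were Ccnb1 (Pearson r = 0.974), Hspb3, a small heat shock protein gene (0.957), and Sv2a, a synaptic vesicle protein gene (0.956). These r values describe arrays that share the step from 0 h to 8 h and the 3 experiments. Among endothelial markers the summed intensity of 5 of 6 markers was 1313 to 1378 at 0 h and 989 to 1125 at 8 h in NS cells, and 1208 to 1216 and 936 to 978 in p300kd cells, with 2 of 5 markers called lower in each (4 and 3 with the experiments blocked) and a median of -0.35 and -0.26. Egfl7 went the other way, at 0.22 in NS cells (adjusted p = 0.0751, or 0.0234 with the block, groups not overlapping) and 0.08 in p300kd cells (adjusted p = 0.534). In bulk RNA fewer cells of a type cannot be told apart from less RNA per cell, and the part of such markers in the Top2a change was not tested. Of 9 fibroblast markers 1 fell and 0 rose in each kind of cell, with summed intensities of 50575 to 55120 at 0 h and 50020 to 54615 at 8 h in NS cells. Of 6 smooth muscle and pericyte markers 2 fell in each, and of 6 macrophage and leukocyte markers 1 fell in NS and 2 in p300kd cells. Over the whole array 16.4% of genes fell in NS and 17.5% in p300kd cells. None of these 3 lists' markers passed as higher without the block. With it Myh11 (0.28 and 0.29) and the pericyte marker Rgs5 (0.43 and 0.65) passed as higher in NS and p300kd cells, Col3a1 (0.23), Dcn (0.15) and Lyz2 (0.29) passed as higher in p300kd cells, and Acta2 (-0.11) passed as lower there.

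Top1, the nuclear type IB enzyme, was read by probe set 10841829. Its log2 intensity was 10.64, 10.42 and 10.58 in untreated and 10.54, 10.45 and 10.29 in treated NS cells, and 10.66, 10.55 and 10.51 in untreated and 10.60, 10.32 and 10.58 in treated p300kd cells. All 4 groups overlapped, and experiment 1 was highest in each of them. The change with Dox was -0.12 (95% interval -0.34 to 0.10, adjusted p = 0.409) in NS cells and -0.07 (-0.29 to 0.15, adjusted p = 0.629) in p300kd cells, and the second value turned to 0.03 with each array centred on its median. A further probe set named Top1, 10707939, differed from it by 0.0199 to 0.0787 over the 12 arrays. The genes most like Top1 over the 12 arrays were Kdm3a, a histone demethylase gene (r = 0.937), Chd6, a chromatin remodeller gene (0.932), and Npat, a coactivator gene of histone transcription (0.931).

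Top1mt, the mitochondrial type IB enzyme, moved the other way from Top2a. Untreated NS cells had 7.70, 7.72 and 7.67 and treated ones 7.96, 7.88 and 7.82 log2 intensity, and untreated p300kd cells had 7.84, 7.71 and 7.69 and treated ones 7.99, 7.86 and 7.91. All treated cultures lay above all untreated ones of their kind. The differences of 0.19 in NS cells (SE 0.0718, adjusted p = 0.0682) and 0.17 in p300kd cells (SE 0.0718, adjusted p = 0.0845) did not pass. In NS cells Top1mt passed once experiments were blocked (adjusted p = 0.0361), without dim genes (adjusted p = 0.0493), after quantile normalization (0.22, adjusted p = 0.0317) and with each array centred on its median (0.29, adjusted p = 0.00855). In p300kd cells it passed only with the last of these (0.28, adjusted p = 0.00962) and after quantile normalization (0.20, adjusted p = 0.0393).

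Top3b, a type IA enzyme that acts on DNA and RNA, had 10.31, 10.38 and 10.33 in untreated and 10.10, 10.21 and 10.12 in treated NS cells. In p300kd cells the values were 10.40, 10.33 and 10.40 without and 10.02, 10.20 and 10.10 with Dox. The treated cultures lay below the untreated ones without overlap in both kinds of cell. In p300kd cells Top3b fell by 0.27 (SE 0.0752, adjusted p = 0.0147). This call was lost without any 1 of the 3 experiments (adjusted p = 0.0510 to 0.164), when only the groups compared entered the fit (adjusted p = 0.0501) and with median centring (-0.17, adjusted p = 0.0748). In NS cells the difference was -0.19 (SE 0.0752, adjusted p = 0.0731), which passed once experiments were blocked (adjusted p = 0.0212) and without the trend of variance with intensity (adjusted p = 0.0489), and was -0.09 with median centring and -0.12 after quantile normalization. Of 3 measured topoisomerase partners out of 7, Tdrd3, which binds TOP3B, fell by 0.29 in NS cells (adjusted p = 0.0362), a call that was lost without experiment 1, 2 or 3 and without 5 of the 12 arrays in turn, with median centring (-0.19), after quantile normalization and with only the groups compared. Fmr1, which encodes a further partner of TOP3B and TDRD3, was 0.37 higher without passing (adjusted p = 0.103, or 0.00833 with the block), and Spo11, the topoisomerase-like protein of meiosis, was at -0.01 (adjusted p = 0.907). In p300kd cells Tdrd3 (-0.16), Fmr1 (0.43, adjusted p = 0.0557, or 0.00286 with the block) and Spo11 (0.14) did not pass.

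Tdp1, which clears TOP1 from 3′ ends, fell in both kinds of cell. Its log2 intensity was 8.83, 9.002 and 8.83 in untreated and 8.46, 8.36 and 8.40 in treated NS cells, and 9.05, 8.89 and 8.93 in untreated and 8.41, 8.18 and 8.30 in treated p300kd cells. Every treated culture lay below every untreated one. Tdp1 fell by 0.48 in NS cells (SE 0.0857, 1.39-fold, adjusted p = 0.00129) and by 0.66 in p300kd cells (SE 0.0857, 1.58-fold, adjusted p = 1.02e-04). Within an experiment it was lower in 6 of 6 pairs, with differences of -0.363 to -0.639 in NS and -0.629 to -0.707 in p300kd cells. Both calls held under all 22 alternatives, with sizes of at least 0.37 and 0.55. The fitted difference between the 2 drug responses (p300kd minus NS) did not pass (-0.19, 95% interval -0.45 to 0.08, adjusted p = 0.9998). It was negative in 3 of 3 experiments, while the other 6 of the 7 genes had mixed signs. The share of all genes with such agreement is not given here, so this does not set Tdp1 apart.

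Of 12 genes that act with or beside Tdp1 in TOP1 adduct repair, 9 were measured. In NS cells 4 fell and 1 rose (median -0.16), and in p300kd cells again 4 fell and 1 rose (median -0.22). With the block 4 fell and 1 rose in NS cells, and 5 fell and 1 rose in p300kd cells. Over the whole array 16.4% of genes fell and 11.1% rose in NS cells, and 17.5% fell and 13.9% rose in p300kd cells. With the block 43.5% and 45.8% of the whole array passed. Xrcc1, the scaffold of single-strand break repair, rose by 0.49 in NS (adjusted p = 7.00e-04) and 0.44 in p300kd cells (adjusted p = 0.00126, or 0.0530 without experiment 2). Polb, the gap-filling polymerase gene, fell by 0.45 and 0.47 (lost without experiment 3 in NS and without experiment 2 in p300kd cells), and Aptx, which removes AMP from stalled ligations, fell by 0.40 and 0.25. The p300kd call of Aptx was lost with median centring, without any 1 experiment and without 3 of the 12 arrays in turn. Mus81, an endonuclease of stalled forks, fell by 0.36 in NS cells (lost without experiment 2 or 3) and by 0.59 in p300kd cells. Its partner Eme1 fell by 0.28 in NS cells (adjusted p = 0.0365, lost under 8 of the 22 alternatives), and Ercc1, of the XPF nuclease, fell by 0.25 in p300kd cells (adjusted p = 0.0359, lost under 11). Values that did not pass were -0.16 for Ercc1 and -0.12 for the protease gene Sprtn in NS cells, and -0.22 for Eme1 (adjusted p = 0.0813, or 0.0420 with the block) and 0.13 for Parp1 in p300kd cells.

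**Figure D2:**
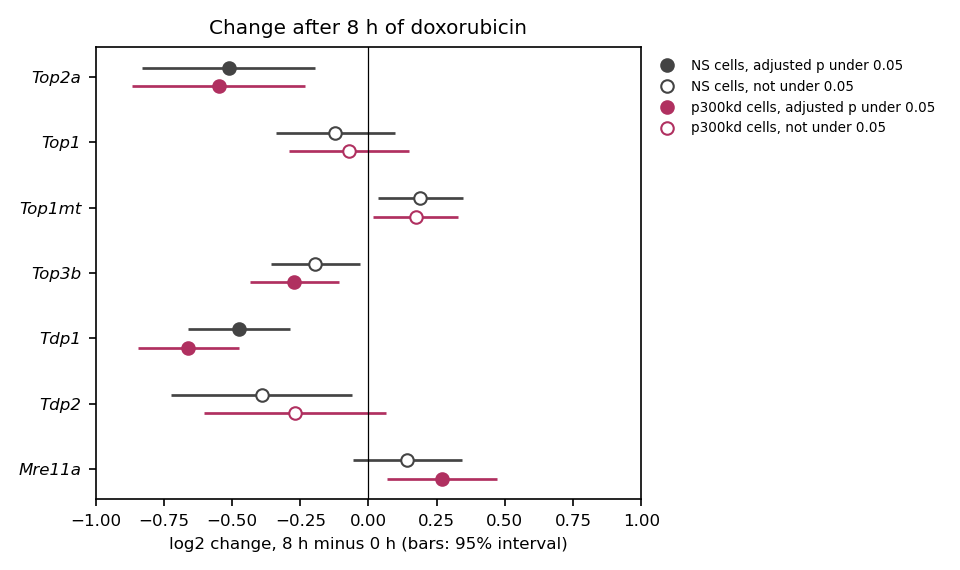
Log2 change of the 7 genes from 0 h to 8 h of Dox (x axis) in NS cells (grey) and p300kd cells (red), with 95% intervals from the limma fit and filled points at an adjusted p under 0.05. Top2a and Tdp1 are filled in both, Top3b and Mre11a in p300kd cells only, and the intervals of the 2 kinds of cell overlap for all 7.

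Tdp2, which clears TOP2 from 5′ ends, had 7.61, 7.31 and 7.27 in untreated and 7.01, 7.25 and 6.74 in treated NS cells, and 7.58, 7.53 and 7.22 in untreated and 7.42, 6.94 and 7.16 in treated p300kd cells. The groups did not overlap in NS cells and did in p300kd cells. Within an experiment the value was lower after Dox in 6 of 6 pairs, with differences of -0.061 to -0.591 in NS and -0.0553 to -0.591 in p300kd cells. The change of -0.39 in NS cells (SE 0.154, adjusted p = 0.0767) passed once experiments were blocked (adjusted p = 0.0119) and without the treated NS array of experiment 2 (-0.52, adjusted p = 0.0381). The change of -0.27 in p300kd cells (SE 0.154, 95% interval -0.60 to 0.06, adjusted p = 0.208) did not pass.

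Mre11a, the nuclease of the MRE11-RAD50-NBN complex, had 8.51, 8.47 and 8.65 in untreated and 8.69, 8.72 and 8.65 in treated NS cells. In p300kd cells it had 8.45, 8.45 and 8.62 without and 8.70, 8.68 and 8.96 with Dox. The treated cultures lay above the untreated ones in both kinds of cell, although in experiment 3 of NS cells the difference was only 0.0018. Mre11a rose by 0.27 in p300kd cells (SE 0.0923, adjusted p = 0.0410), and the call was lost without any 1 of the 3 experiments (adjusted p = 0.106 to 0.163), without 7 of the 12 arrays in turn (largest adjusted p = 0.177, without the treated p300kd array of experiment 3) and when only the groups compared entered the fit. The change of 0.14 in NS cells (95% interval -0.06 to 0.34, adjusted p = 0.281) did not pass, except at 0.25 with median centring (adjusted p = 0.0495).

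Of 14 further genes of TOP2 adduct and break repair 13 were measured, among them the partners of MRE11. In NS cells 1 fell and 0 rose (median 0.15), or 2 fell and 5 rose with the block. In p300kd cells 3 fell and 2 rose (median -0.07), or 3 fell and 5 rose with the block. Over the whole array 16.4% of genes fell and 11.1% rose in NS cells, and 17.5% fell and 13.9% rose in p300kd cells. With the block 43.5% and 45.8% of the whole array passed. Zfp451, which encodes a SUMO ligase that helps TDP2 on TOP2, fell by 0.48 in NS cells (adjusted p = 0.00971, lost without experiment 3) and by 0.46 in p300kd cells (adjusted p = 0.0103, or 0.163 and -0.28 without experiment 2). Rad50 rose by 0.38 in p300kd cells (adjusted p = 0.00839, lost without experiment 3). Xrcc4, of end joining, rose by 0.55 there (adjusted p = 0.0122, lost without experiment 2 or 3 and without the treated p300kd array of experiment 3). Brca1, of homologous recombination, fell by 0.56 (adjusted p = 0.0239, lost without experiment 2 or 3 and without the untreated or treated p300kd array of either), and Rbbp8, which encodes the MRE11 cofactor CtIP, fell by 0.28 (adjusted p = 0.0453, lost under 14 of the 22 alternatives). Lig4, the ligase gene of end joining, had the largest value of the list, 1.04 in NS and 1.03 in p300kd cells, and did not pass (adjusted p = 0.0770 and 0.0750, or 2.83e-05 and 2.56e-05 with the block). Brca1 at -0.42 in NS cells (adjusted p = 0.0900, or 0.0212 with the block) and Xrcc5 at 0.25 in p300kd cells (adjusted p = 0.197, or 0.0163 with the block) did not pass either. Rad50 was 0.23 higher in NS cells without passing (adjusted p = 0.0864, or 0.0229 with the block). There Xrcc4 was 0.37 higher (adjusted p = 0.0812, or 0.00582 with the block) and Rbbp8 0.19 lower (adjusted p = 0.185). The calls of Rad50, Xrcc4, Brca1 and Rbbp8 in p300kd cells alone are therefore not shown to differ from the response in NS cells.

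SUMO and ubiquitin mark trapped topoisomerases for removal. Of 11 such genes 9 were measured. In NS cells 5 fell and 0 rose (median -0.30), and in p300kd cells 4 fell and 2 rose (median -0.23). With the block 5 fell and 1 rose in NS cells, and 5 fell and 2 rose in p300kd cells. Over the whole array 16.4% of genes fell and 11.1% rose in NS cells, and 17.5% fell and 13.9% rose in p300kd cells. With the block 43.5% and 45.8% of the whole array passed. The SUMO ligase genes Pias1 (-0.57 in NS and -0.54 in p300kd cells) and Pias4 (-0.55 and -0.58), the SUMO-targeted ubiquitin ligase gene Rnf4 (-0.54 and -0.49) and the SUMO-activating subunit gene Uba2 (-0.53 and -0.48) fell in both, with adjusted p of 3.03e-04 to 7.48e-04, and these calls held under all 22 alternatives. Sumo3 rose by 0.28 in p300kd cells (adjusted p = 0.0123, lost without experiment 2 or 3), and so did the segregase gene Vcp by 0.25 (adjusted p = 0.0288, lost without experiment 2 or 3 and without 4 of the 12 arrays in turn). In NS cells Sumo3 (0.20, adjusted p = 0.0696, or 0.0132 with the block) and Vcp (0.10) did not pass. Topors, which encodes a TOP1-binding ligase, fell by 0.30 in NS cells (adjusted p = 0.0389, lost under 11 of the 22 alternatives). In p300kd cells Topors (-0.23, adjusted p = 0.0850, or 0.0332 with the block), and Sumo2 (0.07) did not.

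**Figure D3:**
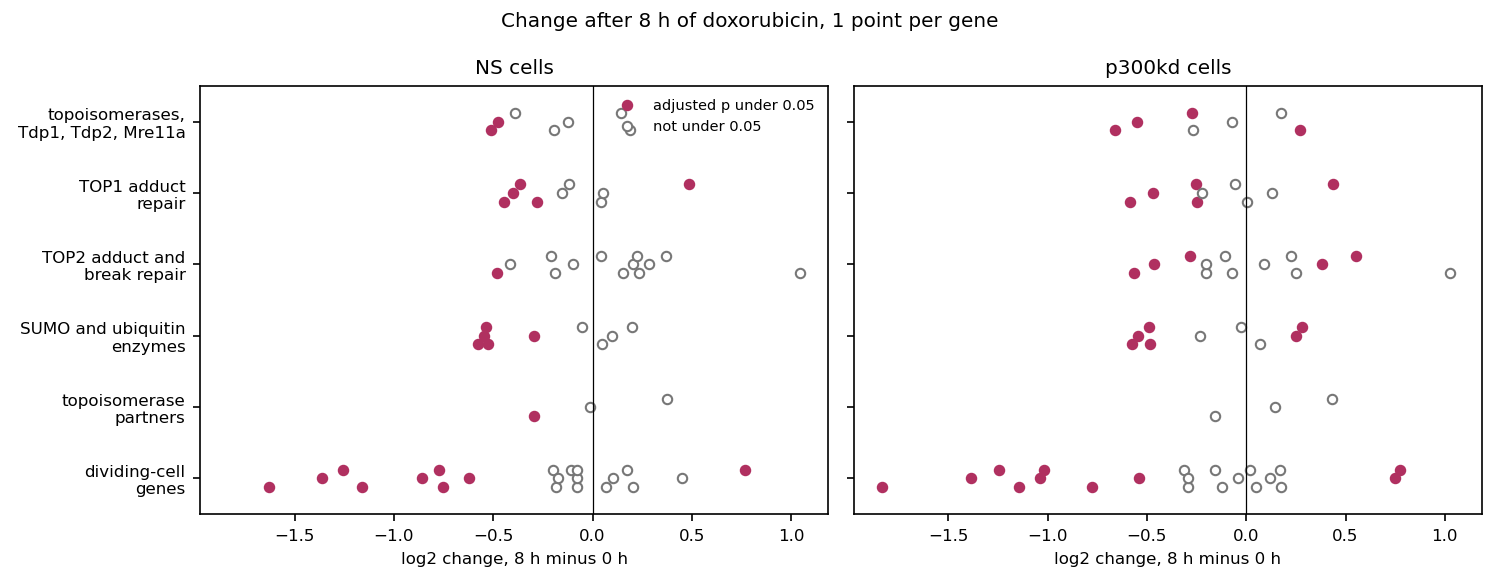
Log2 change from 0 h to 8 h of Dox (x axis) for the 7 genes and for the measured genes of the 5 lists (rows), 1 point per gene, in NS cells (left) and p300kd cells (right), with filled points at an adjusted p under 0.05. The dividing-cell genes reach furthest down, to -1.63 and -1.83, and Lig4 at 1.04 and 1.03 is the open point furthest to the right.

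The p300 siRNA was followed by no called difference in the 7 genes. At 0 h the differences between p300kd and NS cells ran from -0.04 (Mre11a) to 0.07 (Tdp1), with 0 of 7 called by limma. At an unadjusted p under 0.05 stood 0 of 7, against 1008 of all 14506 genes. All 7 overlapped between the groups, where 13% of all genes did not. At 8 h the differences ran from -0.11 (Tdp1) to 0.17 (Tdp2), again with 0 of 7 called. At an unadjusted p under 0.05 stood 0 of 7, against 1155 of all 14506 genes. All 7 overlapped at 8 h as well, where 11.1% of all genes did not overlap. Of all genes 0.0207% were called at 0 h and 0.0483% at 8 h, so a count of 0 is near the background. Averaged over both times the largest difference was 0.11 for Tdp2 (adjusted p = 0.752), with 0 of 7 called, against 1.25% of all genes. At an unadjusted p under 0.05 stood 0 of 7, against 1845 of all 14506 genes. The 95% intervals of these differences are from the fit without the block and so leave the pairing of arrays out. For Top2a they were -0.26 to 0.38 at 0 h and -0.29 to 0.34 at 8 h. For Top1 they were -0.19 to 0.25 and -0.14 to 0.30, and for Tdp1 -0.11 to 0.26 and -0.30 to 0.07. The widest was that of Tdp2 at 8 h, -0.16 to 0.51. With the experiments blocked the count stayed at 0 of 7 at 0 h, at 8 h and averaged, against 2.69%, 3.14% and 9.51% of all genes. The 5 pathway lists had 0 genes called at either time, by limma with or without the block; averaged over both times 0 passed without it, and with it Polm (0.21) passed as higher and Rrm2 (-0.18) as lower. Markers of other cells stood as follows with the siRNA. Summed over 9 fibroblast markers the intensity was 44885 to 52119 in untreated p300kd and 50575 to 55120 in untreated NS cells, and over 6 macrophage and leukocyte markers 5559 to 8704 and 8272 to 10230, ranges that overlap. Over 5 endothelial markers it was 1208 to 1216 and 1313 to 1378, and after Dox 936 to 978 and 989 to 1125, without overlap. Cdh5 and Kdr were lower without overlap at both times and Tek at 0 h only, while Pecam1 and Egfl7 overlapped at both. Of these endothelial markers 0 passed at 0 h or at 8 h. Of the fibroblast markers 0 of 9 passed at 0 h, at 8 h or averaged, and with the experiments blocked 3, 3 and 5 of 9 passed as lower. Averaged over both times 2 of the 6 macrophage and leukocyte markers, Ptprc (-0.40) and Csf1r (-0.46), and the pericyte marker Cspg4 (-0.37) were called lower. With the block the averaged comparison also called Cd68 (-0.39), Lyz2 (-0.28), Pdgfrb (-0.23) and the endothelial marker Kdr (-0.18) lower. With the block 2 of the 6 macrophage and leukocyte markers passed as lower at 0 h and 3 at 8 h, as did Cspg4 (-0.38) at 8 h. The part of these markers in the members' values was not tested.

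**Figure D4:**
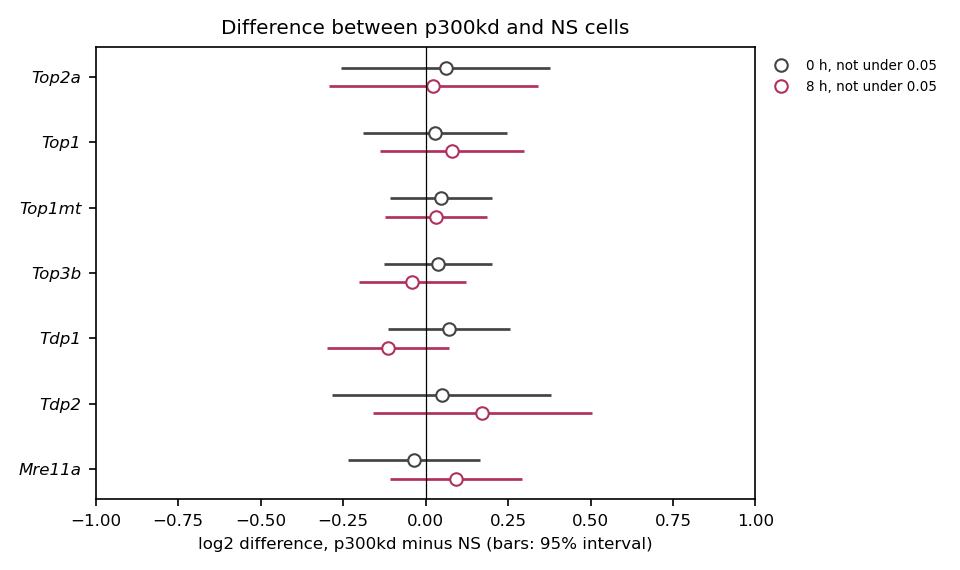
Log2 difference between p300kd and NS cells (x axis) for the 7 genes at 0 h (grey) and 8 h (red), with 95% intervals from the limma fit. No point is filled, since none had an adjusted p under 0.05, and every interval includes 0.

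The drug response itself was compared between the 2 kinds of cell by the interaction term. None of the 7 genes, and 0 of all 14506 (0%), differed at an adjusted p under 0.05 by limma, with or without experiments as a block, and 228 genes had an unadjusted p under 0.05, of which 0 were among the 7. The differences, p300kd minus NS, ran from -0.19 (Tdp1) to 0.13 (Mre11a), and the intervals reached from -0.48 (Top2a) to 0.59 (Tdp2). Calls of Top3b and Mre11a in p300kd cells alone are therefore not shown to differ from the response in NS cells: their differences were -0.08 (95% interval -0.31 to 0.15) and 0.13 (-0.16 to 0.41). The same holds for every list gene called in a single kind of cell. Among these are Sumo3, Vcp, Ercc1 and Pcna in p300kd cells and Topors, Eme1 and Tdrd3 in NS cells.

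Ordered by mean level, Tdp1 stood at 8.96 ± 0.0844 (SD, n = 3) in untreated p300kd, 8.89 ± 0.102 in untreated NS, 8.41 ± 0.0505 in treated NS and 8.30 ± 0.111 in treated p300kd cells. The values of the first 2 groups overlapped, and so did those of the last 2. Within each experiment Tdp1 after Dox was lower in p300kd than in NS cells (-0.0584, -0.1793 and -0.1059), and the difference did not pass (adjusted p = 0.799, limma). At 0 h the Tdp1 differences had no common direction (0.2253, -0.1117 and 0.1003). After Dox Top3b was likewise lower in p300kd cells in each experiment (-0.0849, -0.0128 and -0.022) without passing. The other 5 genes were mixed, and the share of all genes with a common direction is not given here. Top2a had the order untreated p300kd (10.63 ± 0.106), untreated NS (10.57 ± 0.181), treated p300kd (10.08 ± 0.212) and treated NS (10.06 ± 0.275), with the same 2 pairs not separated. Top3b followed the order of Tdp1, with means of 10.38, 10.34, 10.14 and 10.10. Mre11a (8.51, 8.54, 8.69 and 8.78) and Top1mt (7.75 and 7.70 untreated, 7.89 and 7.92 treated) stood higher in the treated groups. With Dox 5 of 7 genes did not overlap between treated and untreated cultures in NS cells (2 higher, 3 lower), against 41.3% of all genes (20.1% higher, 21.2% lower), and 5 of 7 in p300kd cells (2 higher, 3 lower), against 43.2% (21.6% in each direction). The direction was the same in all 3 experiments for 6 of 7 genes in each kind of cell, with Top1 the exception. The share of all genes with such agreement is not given here, so this count does not set the 7 genes apart from the array.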

How the data were processed

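Total RNA of 12 cultures was labelled and hybridised to whole-transcript arrays. The deposited values are one intensity per probe set, made by the authors with RMA (background correction, normalization between arrays, summary over probes) in Affymetrix Expression Console 1.1, per the submitters' processing notes. They are on a linear scale (8.05 to 25315), how they became linear is not given in the sources used here, and log2 was taken. Of 29214 probe sets 15310 had 1 gene symbol in the platform annotation, 323 several and 13581 none. The brightest probe set was kept for the 527 genes with more than 1, which left 14506 genes; 14480 had their Entrez identifier in RefSeq's rat table (GRCr8). The files give no detection call.

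A model of 4 group means was fitted to all genes with limma 3.58.1 in R 4.3.3 (variance trend in eBayes; 8 residual df; two-sided), adjusted by Benjamini-Hochberg within each of 6 comparisons; a call is an adjusted p under 0.05. The fit was tested on simulated data with independent noise on each array. These held no effect of experiment, so the test does not cover the pairing described below. Intervals are 95% intervals from that fit. Fold changes are 8 h minus 0 h and p300kd minus NS.

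The replicate numbers pair the arrays. Deviations from the group means correlated across genes with r = 0.172 to 0.689 in the 18 pairs of arrays with 1 number (median 0.504). Pairs with unlike numbers had a median of -0.271. That negative value follows largely from subtracting the group means and is no separate evidence. A number is called an experiment on the ground of the first value. The model without that replicate block is the main one, so its standard errors and the intervals printed leave the pairing out. With the block the standard error for Dox in NS cells was smaller for each of the genes described. It went from 0.146 to 0.0832 for Top2a and from 0.0718 to 0.0687 for Top1mt. Blocked intervals are not given. The blocked value stands beside the calls and list counts it changes. The labels call the replicates biological.

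The genes, the 5 pathway lists and the 5 marker lists were chosen with earlier results of these data known, and the lists are no independent evidence. Named list genes are up to 4 called per direction and 2 uncalled with the largest change. Figures used Python 3.11.15 and matplotlib 3.10.9. Alternatives were the block, only the groups compared, no dim genes (lowest 25%), median centring, quantile normalization, no variance trend, the mean of a gene's probe sets, and leaving out each array or experiment.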

Additional observations from a re-analysis of the deposited data

How the results depend on the processing

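The number of genes called among the 7 after Dox in NS cells was 2, became 5 with the replicate block (43.5% of all genes were then called) and 4 with median centring, and lay between 1 and 3 when an array or an experiment was left out. In p300kd cells it was 4, became 2 when only the groups compared were fitted, and lay between 1 and 4 with an array or an experiment left out. The 4 counts of 0 for the siRNA comparisons and the interaction did not move under any of the alternatives run. Of 767 values of the 7 genes that were called neither in the main fit nor under an alternative, 55 turned their sign; no called value of them did. Among all genes the block moved the calls from 3992 to 6317 for Dox in NS cells, from 3 to 390 and from 7 to 455 for the siRNA at 0 h and 8 h, and from 181 to 1380 averaged. Without dim genes 4 were called for the siRNA at 8 h, after quantile normalization 1 at 0 h and 3 at 8 h, and with only the groups compared 0 at either time. Leaving out an array or an experiment gave 1782 to 4266 calls for Dox in NS cells, 2269 to 4847 in p300kd cells, 0 to 20 and 0 to 17 for the siRNA at 0 h and 8 h, and 0 to 371 averaged. The causes of these shifts were not tested.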
